A study of Mus musculus with 12 samples.

Results

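The genes described here carry the names of motile cilia genes: 47 protein-coding genes, taken by symbol from the 45906 genes of a spinal cord RNA sequencing table. Of the 47, 15 are axonemal dynein heavy chains (Dnah followed by a number) and 32 are cilia and flagella associated proteins (Cfap followed by a number). The rule for the choice used names and position and no measured value. Earlier results of these data were known when it was made. Genes on chromosome 4 from 10 Mb before the start of Plekhg5 to the chromosome's end were left out, which removed Cfap74. Whole spinal cord was taken from 7-month-old mice on a C57BL/6 background, with 3 mice in each of 4 genotypes. The control genotype was Plekhg5+/+. Plekhg5-/- mice lacked Plekhg5, a regulator of autophagy at synapses. Plekhg5+/+ SOD1-G93A mice carried a human transgene for mutant superoxide dismutase, from the low copy line of this model of amyotrophic lateral sclerosis, and Plekhg5-/- SOD1-G93A mice carried the transgene and lacked Plekhg5. The crosses ask how loss of Plekhg5 acts in the presence and absence of mutant SOD1.

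A motile cilium beats because dynein arms on each outer microtubule doublet walk along the neighbouring doublet. Outer arms set the beat frequency, inner arms shape the waveform, and the central apparatus and radial spokes pass signals to the arms. In the spinal cord such cilia are carried by the ependymal cells that line the central canal and move cerebrospinal fluid, and the transcription factors Foxj1 and the RFX family switch on many of the genes. Ependymal cells are a small fraction of the tissue, so many of these transcripts are measured at low levels, and in whole tissue a change in the number of ependymal cells and a change in RNA per cell cannot be told apart.

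RFX factors recognise the X-box, and the promoters of these genes were searched for it because it is a sequence that motile cilia genes are known to share. RefSeq promoter windows on GRCm38.p6, with 250 bases before and 50 bases after an annotated start, were found for 39 of the 47 genes. The start used can lie inside the gene as counted here, as for Cfap126 and Dnah17. Cfap126 begins at 171113912 and its window at 171122795. The X-box was written as GTNNCC and, after 3 bases of any kind, GNNAC (N is any base), and searched on both strands. It was present in 10 of the 39 genes (25.6%), compared with 5.26% of all genes with a window and 5.47% of the protein-coding ones. The 10 matches are shown as stretches of 30 bases on the strand of the gene, with the matched letters in capitals.
Dnah2 (chr11:69549173-69549202, minus strand): ggagggggGTGGCCTCAGCTACaaatcacc
Dnah10 (chr5:124725081-124725110, plus strand): ttgctaggGTCGCCGTTGCCACggacgccc
Dnah17 (chr11:118129357-118129386, minus strand): acgcccttGTCACCAGCGCAACcacagata
Cfap44 (chr16:44394764-44394793, plus strand): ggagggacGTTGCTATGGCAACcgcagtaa
Cfap45 (chr1:172521103-172521132, plus strand): gttcttggGTTGCTATGGTAACgcgtcagc
Cfap61 (chr2:145934768-145934797, plus strand): gccgcgtcGTTTCCTTAGCAACtgtgtgcg
Cfap77 (chr2:29055281-29055310, minus strand): ggcgtcttGTCACCAAGGAGACgggacgtt
Cfap126 (chr1:171122955-171122984, plus strand): tgttcaagGTATCCATGGCTACttctcagt
Cfap206 (chr4:34730208-34730237, minus strand): cgcgttccGTTTCCACGGTTACgcgactgc
Cfap298 (chr16:90935016-90935045, minus strand): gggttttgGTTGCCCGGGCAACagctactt

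In Cfap44 and Cfap45 the letters fit the motif on the opposite strand. The matches spanned heavy chains of both arms (Dnah2, Dnah10 and Dnah17), proteins inside the microtubules (Cfap45, Cfap77 and Cfap126), the dynein tether protein Cfap44 and the arm assembly factor Cfap298. The shorter motif GTTGCCA, searched alone on both strands, was found in 9 of the 39 genes (23.1%) and in 5.02% of all genes, and 16 of the 39 held one motif or the other. In Dnah10 and Cfap44 a match to the short motif overlapped the X-box. The forkhead motif TGTTTAC, the kind of site Foxj1 binds, was found in 3 of the 39 genes (7.69%) and in 4.05% of all genes. A match describes letters in a window and is no evidence of a bound site.

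The libraries held 30415643 to 38743628 counts, and the 47 genes together took 384.1 to 414 CPM (counts scaled to a library of 1000000, with library sizes adjusted by the trimmed mean of M values). Plekhg5 itself fell in Plekhg5-/- mice, by 2.53 on the log2 scale without the transgene and by 2.398 with it, and human SOD1 reads were present at 4421 to 5638 CPM in the 6 transgenic libraries and at most 5.47 CPM in the others. Foxj1, the defining transcription factor of motile ciliated cells, was detected in every library, at 26.65 to 38.3 CPM, and all 16 ependymal markers passed the filter on low counts. Of 8 markers of the choroid plexus, another ciliated tissue, 6 passed the filter and the 8 summed to 24.6 to 33.5 CPM. Prlr (12.85 to 19.3 CPM) and Kl (5.003 to 7.05 CPM) carried most of that sum, while Ttr and Otx2 did not pass and reached at most 1.74 and 0.0900 CPM. Plekhg5+/+ replicate 1 stood apart, with the highest value of its genotype in 27 of the 46 measurable genes. Y-linked transcripts were present in 3 of the 3 Plekhg5+/+ libraries, in 2 of 3 from Plekhg5-/- mice, in 2 of 3 with the transgene alone and in 1 of 3 with both changes, so sex was not balanced between genotypes.

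Of the 47 genes, 46 passed the filter on low counts. The exception was Cfap97d1, with 0 counts in all 12 libraries, which allows a level of up to 0.0774 to 0.0986 CPM depending on the library's depth (3 counts per library, counting error only). In Plekhg5+/+ cord 10 of the 47 genes lay under 1 CPM, 30 between 1 and 10 CPM and 7 above 10 CPM. To compare genes of different length, CPM was divided by the exon length in kb.

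By this measure the 6 most abundant genes were all Cfap genes. Cfap36, which binds the small GTPase Arl3, had 27.1 ± 1.41 CPM per kb (SD, n = 3). Cfap20, a protein of the junction that closes the doublet microtubule and also found in the nucleus, had 19.6 ± 2.23 CPM per kb. Cfap298, needed to assemble dynein arms, had 14.4 ± 1.515 CPM per kb, and Cfap410, a basal body protein, had 12.96 ± 1.08 CPM per kb, values that overlapped within their spread. Cfap97 followed with 7.07 ± 0.392 CPM per kb and the dynein assembly factor Cfap300 with 4.78 ± 0.364 CPM per kb. Cfap36 alone made up 28.45% of the summed CPM of the genes, and the 5 genes with the highest CPM (Cfap36, Cfap97, Cfap410, Cfap20 and Cfap69) made up 60.38%, so that a sum over all members mainly follows these genes. Whether the RNA of these 5 genes came from motile ciliated cells was not tested.

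**Figure D1:**
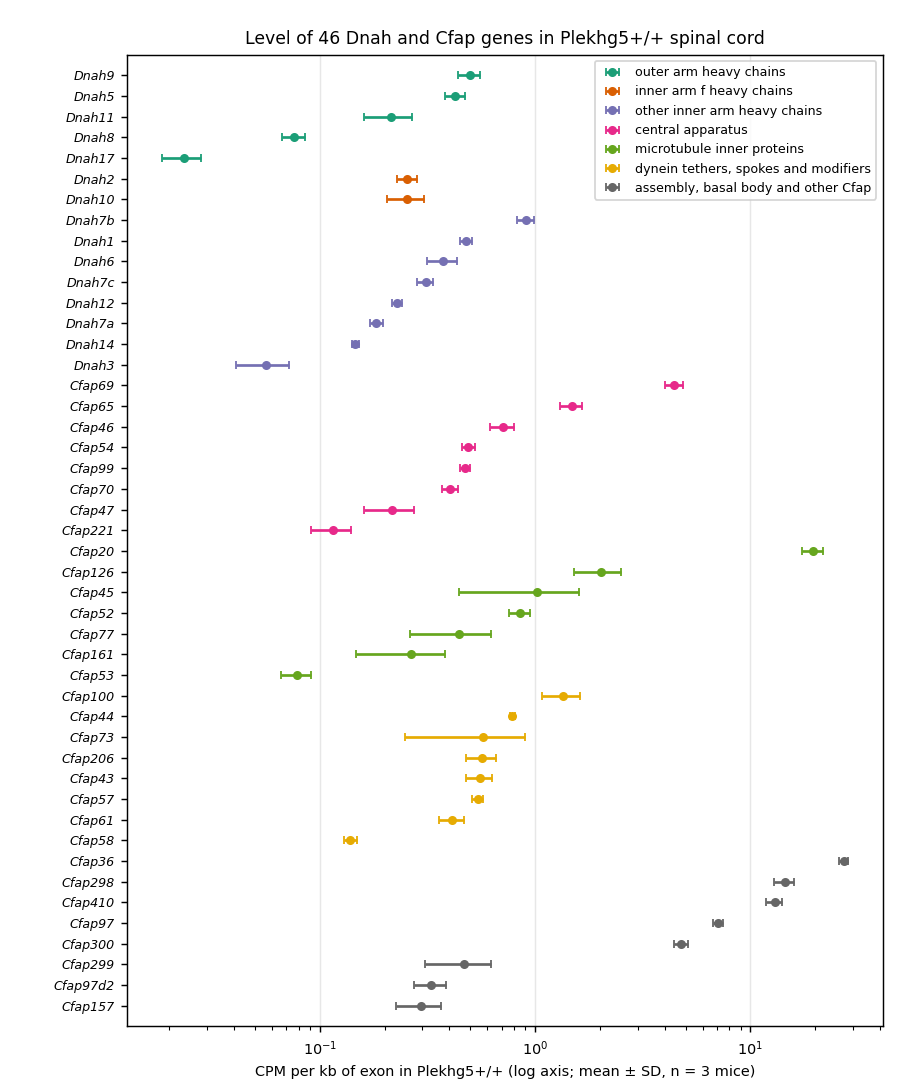
Level of each of the 46 measurable genes in Plekhg5+/+ spinal cord, as CPM per kb of exon on a log axis (points are means and bars the SD of 3 mice), coloured by role. Cfap36, Cfap20, Cfap298 and Cfap410 lie above 10 CPM per kb and every dynein heavy chain lies below 1 CPM per kb.

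The dynein heavy chains, the motors themselves, were all below 1 CPM per kb in Plekhg5+/+ mice, on exon lengths of 12916 to 20820 bases. Among the outer arm chains, Dnah9 had 0.497 ± 0.0597 and Dnah5 0.426 ± 0.0452 CPM per kb, a pair that overlapped, and Dnah11 had 0.215 ± 0.0546 CPM per kb. The outer arm chains known best from sperm were lower, with 0.0762 ± 0.00927 CPM per kb for Dnah8 and 0.0233 ± 0.00487 CPM per kb for Dnah17, the lowest of the 46 genes. Dnah2 and Dnah10, which together form inner arm f, had nearly equal levels of 0.255 ± 0.0264 and 0.255 ± 0.0505 CPM per kb.

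The other inner arm chains spread over a wider range. Dnah7b was highest with 0.909 ± 0.0817 CPM per kb, followed by Dnah1 (0.479 ± 0.0318), Dnah6 (0.375 ± 0.0608), Dnah7c (0.310 ± 0.0267), Dnah12 (0.228 ± 0.0122), Dnah7a (0.183 ± 0.0123), Dnah14 (0.146 ± 0.00545) and Dnah3 (0.0563 ± 0.0153 CPM per kb). Dnah7a, Dnah7b and Dnah7c are near-identical copies on chromosome 1, and their counts were not whole in 10 or 11 of the 12 libraries because reads that fit several places were divided among them, so their separate levels are uncertain. Cfap53, a microtubule inner protein, joined Dnah17, Dnah3 and Dnah8 as the 4 lowest measurable genes, with 0.0786 ± 0.0126 CPM per kb.

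Variation between mice of one genotype was largest for genes with few reads. Among genes at 1 CPM or more, the SD between mice on the log2 scale was largest for the inner proteins Cfap45 (0.401) and Cfap161 (0.353) and the outer arm chain Dnah8 (0.33), and smallest for Cfap36 (0.0464), Cfap410 (0.0979) and Cfap69 (0.101). Cfap45 was at 3.07, 1.35 and 1.16 CPM in the 3 Plekhg5+/+ mice, and from 1.199 to 1.735 CPM in the other 9 libraries. A single Plekhg5+/+ mouse, replicate 1, thus lay above all other libraries. Cfap161 was at 1.71, 0.850 and 0.827 CPM in the same 3 mice, with the same mouse highest.

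**Figure D2:**
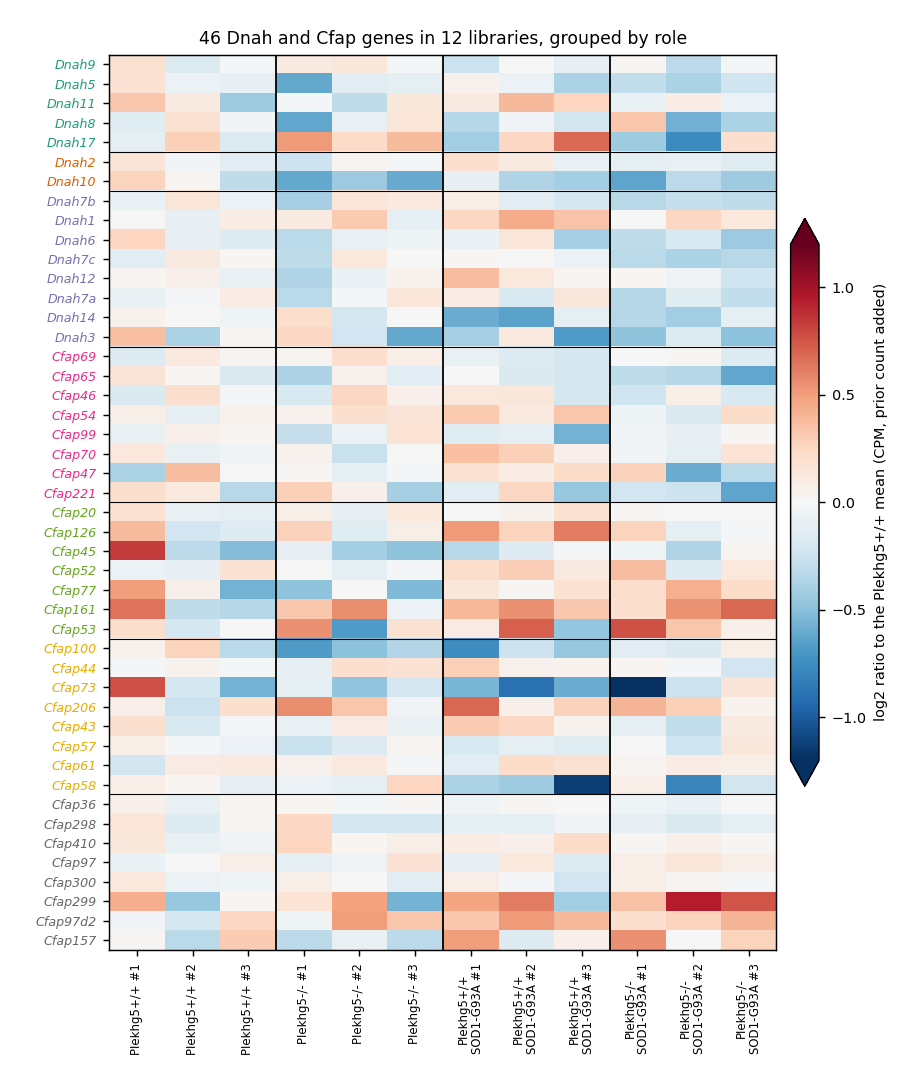
Log2 ratio of each gene's level (CPM with a prior count added) to its mean over the 3 Plekhg5+/+ mice, in 12 libraries (columns, split by genotype) and 46 genes (rows, split and coloured by role). No genotype forms a block of uniform colour, and the strongest colours fall on genes with few reads such as Cfap73, Cfap58 and Cfap299.

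None of the 46 genes differed between any genotypes at an adjusted p under 0.05 by edgeR's quasi-likelihood test, in the 4 comparisons between pairs of genotypes, the 2 effects averaged over both backgrounds, or the interaction. DESeq2, as a second tool, called 0 of the 46 genes in each of these without a prior on fold changes. With the prior it called only Cfap100 of the 46, in the interaction. The share of all genes called with the prior is not given here. At an unadjusted p under 0.05, edgeR listed 2 to 6 of the 46 genes, depending on the comparison. The estimates were not equally tight: 36 of the 46 genes had a 95% interval within a 1.5-fold change either way for Plekhg5 loss averaged over both backgrounds, and 14 for the interaction. For genes with wider intervals a 1.5-fold change lay inside the interval, and 21 of the 46 genes had a median of fewer than 100 counts.

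The transgene was compared first in mice with Plekhg5. Here 2.47% of all 20155 genes tested were called, 0 of the 46 among them, and 6 of the 46 had an unadjusted p under 0.05 (13%), beside 18.2% of all genes. The 46 genes had a median log2 fold change of 0.02, and all genes one of 0.00 at this precision. Dynein heavy chains had values in both directions. Dnah1, an inner arm chain (chr14:31260375-31325891), was at 6.21, 5.79 and 6.615 CPM in Plekhg5+/+ and at 7.39, 8.45 and 7.86 CPM in Plekhg5+/+ SOD1-G93A mice. All 3 transgenic mice lay above all 3 controls, and the log2 fold change was 0.35 ± 0.121 (SE; edgeR adjusted p = 0.148).

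Dnah14, another inner arm chain (chr1:181589974-181814932), had the opposite sign, with 2.175, 2.08 and 2.02 CPM in Plekhg5+/+ and 1.37, 1.32 and 1.92 CPM in Plekhg5+/+ SOD1-G93A mice. Those groups did not overlap either, although Plekhg5+/+ SOD1-G93A replicate 3 came close to the controls (log2 fold change -0.44 ± 0.181, edgeR adjusted p = 0.216). Cfap100, the homologue of an algal modifier of inner arms, was at 6.99, 8.12 and 5.39 CPM in Plekhg5+/+ and at 4.01, 5.61 and 4.89 CPM in Plekhg5+/+ SOD1-G93A mice. These ranges overlapped, and its log2 fold change of -0.50 ± 0.166 had the smallest p of the 46 genes in this comparison (edgeR adjusted p = 0.131).

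Other members in the same comparison included Cfap97d2, with a log2 fold change of 0.40 ± 0.1635 (edgeR adjusted p = 0.212), and Cfap126, known as flattop and needed to place basal bodies, with 0.45 ± 0.187 (edgeR adjusted p = 0.224). Cfap126 was at 3.97, 2.58 and 2.73 CPM in Plekhg5+/+ and 4.35, 3.66 and 4.68 CPM in Plekhg5+/+ SOD1-G93A mice. The control replicate 1 lay inside the transgenic range, so the groups overlapped. Over the 7 proteins inside the microtubules 6 had a log2 fold change above 0, with a median of 0.19, and 1 of the 7 had an unadjusted p under 0.05. In all, 4 genes lay higher without overlap (Dnah1, Cfap44, Cfap54 and Cfap97d2) and 4 lower (Dnah14, Cfap57, Cfap58 and Cfap99), which is 17.4% of the 46 beside 20.6% of all genes.

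Other cell types moved in this comparison. Microglia markers summed to 326.2 to 367.7 CPM in Plekhg5+/+ and 603.4 to 1139 CPM in Plekhg5+/+ SOD1-G93A mice, and 9 of the 10 markers rose by edgeR (Csf1r, Aif1, Itgam, C1qa, C1qb, Cx3cr1, P2ry12, Cd68 and Cst7), among them the lysosomal protein Cd68 (log2 fold change 2.36 ± 0.3003, adjusted p = 0.0125). The astrocyte markers Gfap (log2 fold change 1.23 ± 0.221, edgeR adjusted p = 0.0198) and Sox9 (0.81 ± 0.156, edgeR adjusted p = 0.0206) rose as well, 2 of 8 on that list. The part of these shifts in the values of the cilia genes was not tested.

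**Figure D3:**
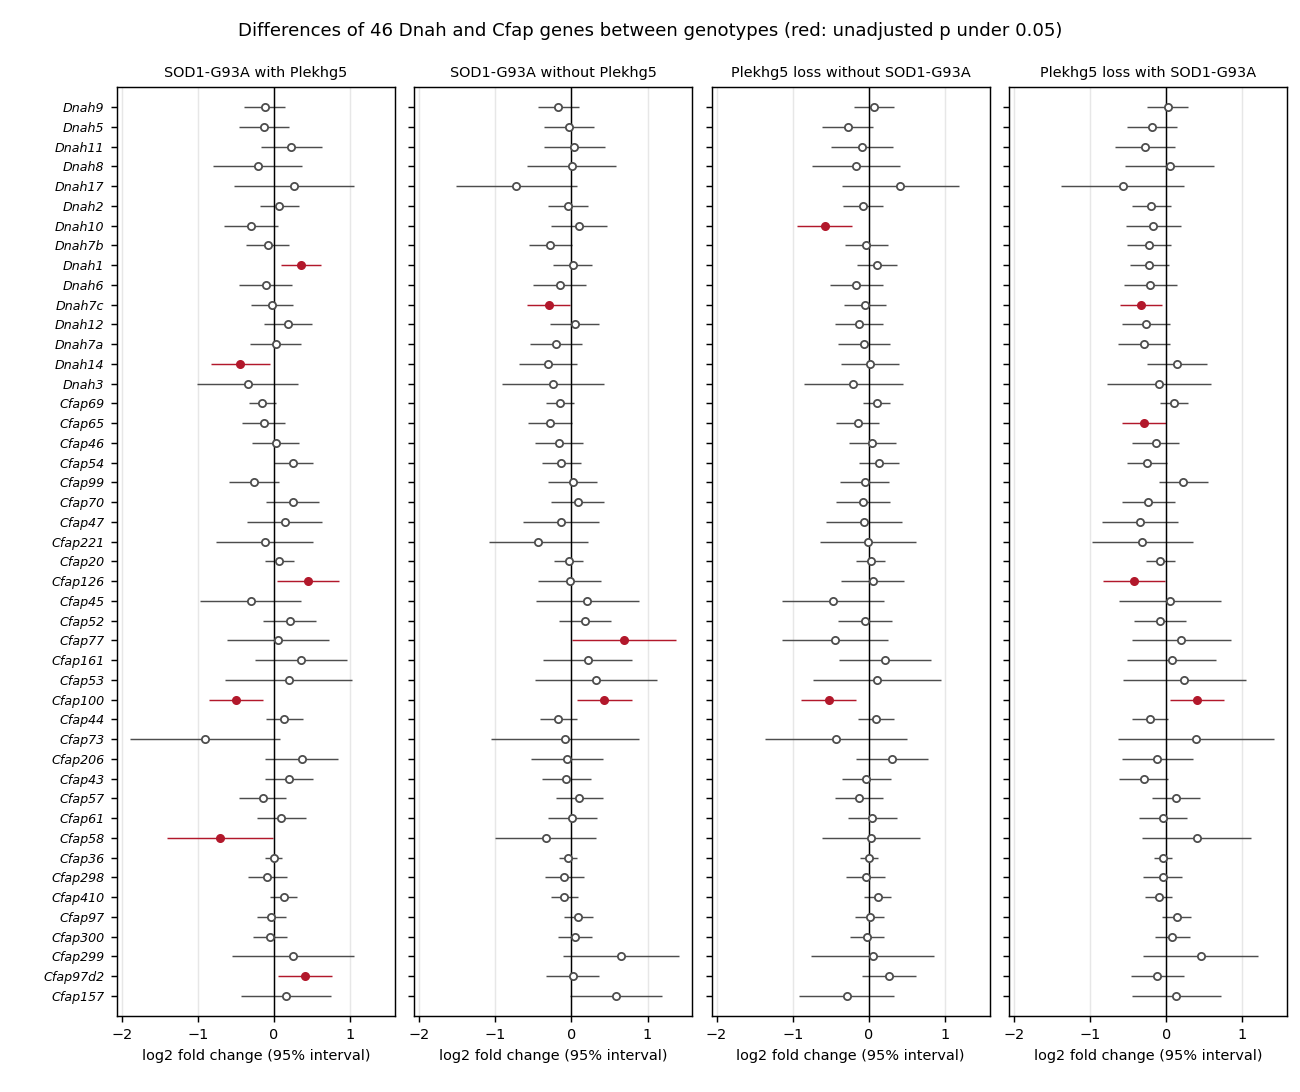
Log2 fold change with its 95% interval for the 46 genes in the 4 comparisons between pairs of genotypes, fitted with edgeR on all 12 libraries (filled red points have an unadjusted p under 0.05). None passed the adjusted threshold, and Cfap100 is filled in all 4 panels, below 0 in 2 and above 0 in 2.

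In mice without Plekhg5, the transgene comparison called 0.00496% of all genes and 0 of the 46. An unadjusted p under 0.05 was found for 3 of the 46 (6.52%) beside 5.38% of all genes, and the median log2 fold change was -0.04. Cfap100 was at 4.18, 4.76 and 5.27 CPM in Plekhg5-/- and at 6.14, 5.95 and 7.095 CPM in Plekhg5-/- SOD1-G93A mice. Here the transgenic mice were all higher, opposite to the direction with Plekhg5, with a log2 fold change of 0.43 ± 0.1655 (edgeR adjusted p = 0.841). Dnah7c was at 3.24, 4.40 and 4.03 CPM in Plekhg5-/- and at 3.22, 3.11 and 3.18 CPM in Plekhg5-/- SOD1-G93A mice, a log2 fold change of -0.30 ± 0.130 (edgeR adjusted p = 0.899). The transgenic values were all lower, but Plekhg5-/- replicate 1 lay just above them, and Dnah7c shares reads with Dnah7a and Dnah7b.

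Cfap77, a microtubule inner protein measured by 8 to 20 counts per library, had a log2 fold change of 0.69 ± 0.315 in the same comparison (edgeR adjusted p = 0.914). Without overlap, 3 genes lay higher (Cfap77, Cfap100 and Cfap157) and 3 lower (Dnah7c, Dnah17 and Cfap69), 13% of the 46 beside 12.5% of all genes. Markers of meningeal fibroblasts and nerve roots summed to 145.6 to 206.4 CPM in Plekhg5-/- and 434.9 to 565.1 CPM in Plekhg5-/- SOD1-G93A mice, and 0 of 7 were called by edgeR there, with 6 higher at an unadjusted p under 0.05. Their part in the values of the cilia genes was not tested.

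Averaged over both backgrounds, the transgene comparison called 1.22% of all genes and 0 of the 46, and 4 of the 46 (8.7%, all lower) had an unadjusted p under 0.05, beside 14.7% of all genes in either direction and 5.33% lower. The gene with the smallest p was Dnah14, with 1.81 to 2.43 CPM in the 6 mice without and 1.32 to 1.93 CPM in the 6 with the transgene. These ranges overlapped, and the log2 fold change was -0.37 ± 0.127 (edgeR adjusted p = 0.1715). Cfap69, a central apparatus protein, differed by -0.15 ± 0.0592 on the log2 scale (edgeR adjusted p = 0.243). Its levels were 22.3 to 28.6 CPM without and 21.6 to 25.1 CPM with the transgene, which overlapped. Cfap58, known from sperm flagella and measured by 6 to 18 counts, had a log2 fold change of -0.53 ± 0.222 (edgeR adjusted p = 0.292). None of the 46 genes separated the 6 mice from the other 6, beside 1.81% of all genes. Among markers of other cells, the microglia genes Csf1r, Aif1, Itgam, Cx3cr1, Cd68 and Cst7, the astrocyte gene Sox9 and the fibroblast collagen Col1a1 rose in this average by edgeR at an adjusted p under 0.05, and their part in the values of the cilia genes was not tested.

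Loss of Plekhg5 was compared first without the transgene, where 0.0298% of all genes and 0 of the 46 were called. An unadjusted p under 0.05 was found for 2 of the 46 (4.35%), both lower, beside 5.32% of all genes in either direction and 2.79% lower, and the median log2 fold change was -0.03. Dnah10, a chain of inner arm f (chr5:124725085-124834308), had the smaller p of the pair. It was at 4.26, 3.62 and 2.85 CPM in Plekhg5+/+ and at 2.28, 2.59 and 2.30 CPM in Plekhg5-/- mice. Every Plekhg5-/- mouse lay below every control, and the log2 fold change was -0.58 ± 0.166 (edgeR adjusted p = 0.7135). Its partner Dnah2 was at 5.92, 5.19 and 4.84 CPM in Plekhg5+/+ and at 4.455, 5.42 and 5.24 CPM in Plekhg5-/- mice, groups that overlapped.

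Cfap100 was the other, with a log2 fold change of -0.53 ± 0.1655 and no overlap between the groups (edgeR adjusted p = 0.796). The outer arm chain Dnah5 (chr15:28154854-28472045) was at 7.57, 6.39 and 6.28 CPM in Plekhg5+/+ and at 4.36, 6.12 and 6.22 CPM in Plekhg5-/- mice. The groups were barely apart, with Plekhg5-/- replicate 1 far below the rest, and the log2 fold change was -0.28 (edgeR adjusted p = 0.956). These 3 genes were the only ones without overlap, 6.52% of the 46 beside 8.74% of all genes. Foxj1 was at 38.3, 37.4 and 32.4 CPM in Plekhg5+/+ and at 26.65, 29.6 and 31.4 CPM in Plekhg5-/- mice, likewise without overlap (log2 fold change -0.30 ± 0.123, edgeR adjusted p = 0.929). The lists that hold Foxj1 did not share this direction. Of the 16 ependymal markers 8 had a log2 fold change above 0 and 8 below, with a median of 0.04. Without overlap 1 of them lay higher (Prom1) and 1 lower (Foxj1). Of the 9 transcription factors of motile cilia genes 5 were above 0 and 4 below. Other cilia lists, described further on, were mixed. Above 0 were 0 of the 5 outer arm docking genes and 1 of the 7 dynein intermediate and light chains. The same held for 4 of 11 genes of the nexin-dynein regulatory complex and 4 of 10 of the central apparatus. It held for 6 of 11 dynein arm assembly factors, 5 of 8 radial spoke genes and 16 of 24 intraflagellar transport genes.

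**Figure D4:**
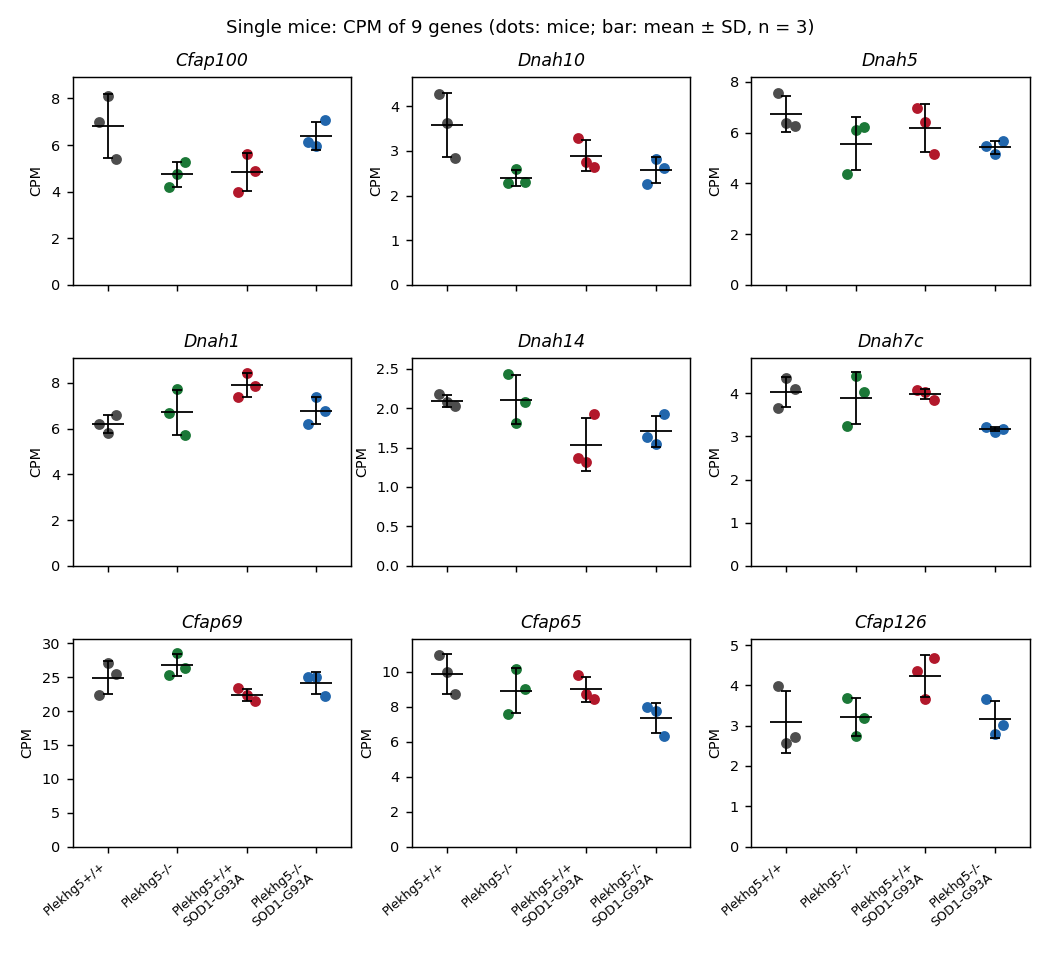
CPM of 9 genes in each mouse (dots, coloured by genotype) with the mean and SD of 3 mice, on axes that start at 0. Cfap100 is lower in Plekhg5-/- and in Plekhg5+/+ SOD1-G93A mice than in the other 2 genotypes on average, and the 3 Plekhg5-/- SOD1-G93A mice lie close together for Dnah7c.

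With the transgene present, loss of Plekhg5 called 0.0347% of all genes and 0 of the 46, and 4 of the 46 (8.7%) had an unadjusted p under 0.05, beside 8.64% of all genes. The median log2 fold change was -0.10, the farthest from 0 of the 7 comparisons, and that of all genes was -0.01. Dnah7c was at 4.07, 4.03 and 3.85 CPM in Plekhg5+/+ SOD1-G93A and at 3.22, 3.11 and 3.18 CPM in Plekhg5-/- SOD1-G93A mice. The ranges were separate and both narrow, with a log2 fold change of -0.33 ± 0.130 (edgeR adjusted p = 0.525). Of the 8 inner arm chains other than Dnah2 and Dnah10, 7 had a negative log2 fold change, with a median of -0.22. Their summed level was 36.7 to 40.5 CPM in Plekhg5+/+ SOD1-G93A and 32.55 to 34.7 CPM in Plekhg5-/- SOD1-G93A mice, although Plekhg5-/- replicate 1, without the transgene, had 32.9 CPM. The shared reads of Dnah7a, Dnah7b and Dnah7c make 3 of the 8 chains dependent on each other. Dnah7b, the largest term of the sum, had a mean of 13.98 CPM in Plekhg5+/+ SOD1-G93A and 11.97 CPM in Plekhg5-/- SOD1-G93A mice. Taken singly, 19.5% of all genes did not overlap between these genotypes. In the same comparison 0 of the 10 microglia markers were called by edgeR, but 9 were lower at an unadjusted p under 0.05, and the list summed to 603.4 to 1139 CPM in Plekhg5+/+ SOD1-G93A and 456.5 to 504.8 CPM in Plekhg5-/- SOD1-G93A mice. Of the 7 meningeal and root markers 0 were called and 4 were higher at an unadjusted p under 0.05, with sums of 166.2 to 274.7 CPM and 434.9 to 565.1 CPM. The part of either list in the values of the heavy chains was not tested.

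Cfap65, a central apparatus protein, was at 9.78, 8.71 and 8.46 CPM in Plekhg5+/+ SOD1-G93A and at 7.96, 7.74 and 6.34 CPM in Plekhg5-/- SOD1-G93A mice. The mice without Plekhg5 were all lower (log2 fold change -0.29 ± 0.1325, edgeR adjusted p = 0.571). Cfap126 had a log2 fold change of -0.42 ± 0.187 (edgeR adjusted p = 0.5595) and Cfap100 one of 0.41 ± 0.166 (edgeR adjusted p = 0.5385). Cfap126 levels in Plekhg5-/- SOD1-G93A mice, 3.67, 2.79 and 3.00 CPM, reached into the range of Plekhg5+/+ SOD1-G93A mice. Without overlap, 3 genes lay higher (Cfap77, Cfap99 and Cfap100) and 6 lower (Dnah1, Dnah7b, Dnah7c, Dnah11, Cfap44 and Cfap65), 19.6% of the 46 beside 19.5% of all genes.

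Averaged over both transgene backgrounds, loss of Plekhg5 called 0.0546% of all genes and 0 of the 46, and 2 of the 46 (4.35%, both lower) had an unadjusted p under 0.05, beside 3.88% of all genes in either direction and 1.97% lower. These were Dnah10 (log2 fold change -0.38 ± 0.118) and Cfap65 (-0.22 ± 0.0931), each with an adjusted p of 0.987 by edgeR, and Dnah5 was next with -0.23. None of the 46 separated the 6 mice from the other 6, beside 0.174% of all genes. A log2 fold change above 0 was found for 14 of the 46 genes (30.4%), beside 48.3% of all genes.

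The interaction asks whether the effect of the transgene differs with and without Plekhg5. It called 0% of all genes and 0 of the 46 by edgeR, and 2 of the 46 (4.35%) had an unadjusted p under 0.05, beside 9.05% of all genes. Cfap100 (chr6:90403731-90429768, minus strand) had mean levels of 6.83 CPM in Plekhg5+/+, 4.74 CPM in Plekhg5-/-, 4.835 CPM in Plekhg5+/+ SOD1-G93A and 6.39 CPM in Plekhg5-/- SOD1-G93A mice. The mean was lower with either change alone, the 3 mice with both changes lay within the range of the controls, and the interaction was 0.93 ± 0.234 on the log2 scale (edgeR adjusted p = 0.338). With DESeq2 the adjusted p was 0.0493 with the prior on fold changes and 0.0550 without it. Cfap54, a central apparatus protein, had an interaction of -0.39 ± 0.169 (edgeR adjusted p = 0.526) and the tether protein Cfap44 one of -0.31 (edgeR adjusted p = 0.571).

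Other genes of cilia and ciliated cells were measured from 9 lists, with 100 genes tested in all. Besides partners of the heavy chains and Cfap proteins, the lists held 16 ependymal markers, 24 intraflagellar transport genes and 9 transcription factors. None of the 100 was called by edgeR in any of the 7 comparisons. At an unadjusted p under 0.05, 8 were higher and 6 lower for the transgene with Plekhg5 (14%, beside 18.2% of all genes), and 0 and 1 for the transgene without Plekhg5 (1%, beside 5.38%). Of the 8 higher with Plekhg5, 5 were ependymal markers. For Plekhg5 loss 2 were higher and 5 lower without the transgene (7%, beside 5.32%), and 2 and 5 with it (7%, beside 8.64%). For the transgene averaged over both backgrounds 10 were higher and 4 lower (14%, beside 14.7% of all genes), for Plekhg5 loss 1 and 2 (3%, beside 3.88%), and for the interaction 4 and 4 (8%, beside 9.05%).

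Summed levels of these lists were compared over the 12 libraries. Dynein intermediate and light chains (7 of 8 tested) summed to 86.4 to 96.2 CPM, the outer arm docking complex (5 tested) to 16.97 to 23.8 CPM, and the dynein arm assembly factors (11 of 12 tested) to 248.8 to 275.4 CPM. Single genes held most of the first and the last of these sums, Dnal1 with 60.4 to 69.3 CPM and Dnaaf9 (listed as 4930402H24Rik) with 193.3 to 215.7 CPM. Radial spokes (8 tested) summed to 45.8 to 53.9 CPM, the nexin-dynein regulatory complex (11 tested) to 70.3 to 73.9 CPM, and the central apparatus genes with other names (10 tested) to 34.6 to 41.2 CPM. Intraflagellar transport genes (24 tested), which also serve primary cilia, summed to 1150 to 1288 CPM.

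Among single genes of these lists the smallest p was that of Dnai2 (listed as Dnaic2), an outer arm intermediate chain, for Plekhg5 loss with the transgene, with a log2 fold change of -0.46 ± 0.0942 (edgeR adjusted p = 0.262); it was named after its value was seen. The transcription factors of the program (9 tested) summed to 82.7 to 104.1 CPM. The 16 ependymal markers summed to 162.4 to 202.8 CPM in Plekhg5+/+, 174.7 to 189.7 CPM in Plekhg5-/-, 202.1 to 232.2 CPM in Plekhg5+/+ SOD1-G93A and 202.6 to 205.5 CPM in Plekhg5-/- SOD1-G93A mice. Nnat and Sox2, which other cells of the cord also express, held most of that sum. For the transgene with Plekhg5, 5 of the 16 were higher at an unadjusted p under 0.05 (Rarres2, Mia, Enkur, Nnat and Sox2) and 0 were lower. Of all 20155 genes 2146 were higher at that threshold, and 18.2% passed it in either direction. The list did not move as one, with 9 of the 16 above a log2 fold change of 0 and 7 below. Foxj1 was among those with a lower mean, 36.04 CPM in Plekhg5+/+ and 33.57 CPM in Plekhg5+/+ SOD1-G93A mice.

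**Figure D5:**
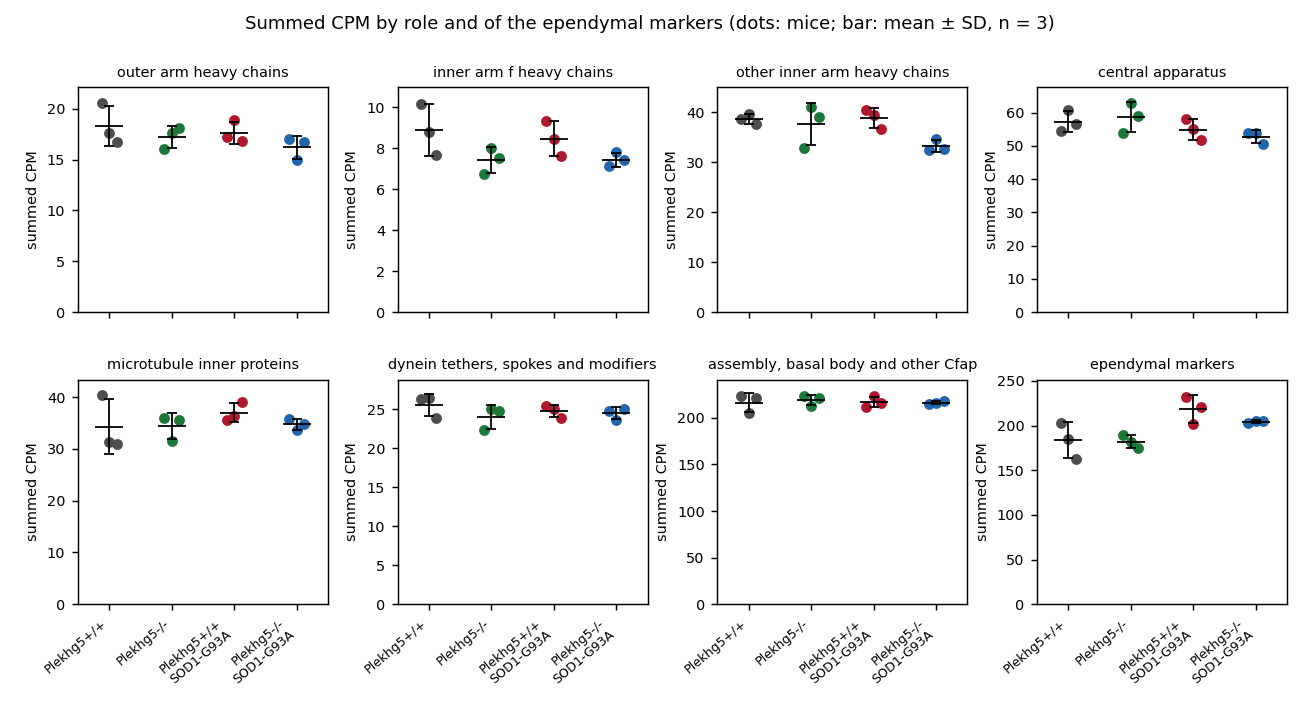
Summed CPM of the genes of each role, and of the 16 ependymal markers, in each mouse (dots) with the mean and SD of 3 mice per genotype, on axes that start at 0. The heavy chains of the inner arms other than arm f lie at 32.55 to 34.7 CPM in Plekhg5-/- SOD1-G93A mice, and the genotypes overlap for the outer arm chains.

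Summed over all 15 heavy chains, the level was 69.4, 66.1 and 62.2 CPM in Plekhg5+/+ mice, 55.6, 66.7 and 64.8 CPM in Plekhg5-/- mice, 67.1, 66.8 and 61.1 CPM in Plekhg5+/+ SOD1-G93A mice, and 56.7, 57.4 and 56.8 CPM in Plekhg5-/- SOD1-G93A mice. The last genotype had the narrowest range and lay below both Plekhg5+/+ genotypes, while Plekhg5-/- replicate 1 was lower still. The 32 Cfap genes summed to 326.7 to 330.1 CPM in Plekhg5-/- SOD1-G93A mice, just below the 330.5 to 339.5 CPM with the transgene alone and inside the range of Plekhg5+/+ mice, 323.5 to 344.6 CPM.

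Across mice of one genotype the genes varied together to a limited degree. With genotype means removed, the correlation of each gene's log2 CPM with the mean of the other members over 12 libraries had a median of 0.2075, and 11 of the 46 (23.9%) were above 0.5, compared with 5.96% of all genes; all values share the libraries and their depth. The highest were Cfap43, a partner of Cfap44 in the dynein tether (0.736), Dnah2 (0.730) and Dnah6 (0.712). The lowest were Cfap61 (-0.652), Dnah7a (-0.464) and Cfap69 (-0.440). Foxj1 reached 0.668 over the 12 libraries, and genes of the lists ran from -0.789 (the intraflagellar transport gene Ift52) to 0.913 (the central apparatus gene Ak7). The 10 genes outside all lists with the highest values were Eif4a3l1, Ccdc174, Lrp2, Umps, Unc5cl, Gm12346, Gm8514, Stk11, Gm5844 and Hsp90aa1, from 0.958 down to 0.880. The excess of the members over all genes rested on Plekhg5+/+ replicate 1. Without it, an alternative added after seeing the data, 7 of the 46 (15.2%) were above 0.5 beside 16.5% of all genes. Of those 10 outside genes 0 stayed among the top 10, although their values remained at 0.6535 (Gm5844) to 0.889 (Eif4a3l1). Cfap43 was then at 0.631, Dnah2 at 0.601 and Dnah6 at 0.547.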

How the data were processed

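Poly(A) RNA of whole spinal cord from 12 mice was sequenced with a stranded kit, single end. According to the study's methods and the submitters' processing notes, the authors trimmed reads with Cutadapt 2.4, aligned them with STAR 2.7.2b to GRCm38.p6 with the human SOD1 cDNA added, and counted RefSeq exons on the reverse strand with featureCounts 1.6.4, dividing reads that map to several places or genes. The deposited values are thus expected counts, not always whole: 17 of the 47 genes had fractions in at least 1 library.

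Counts were rounded and fitted in edgeR 4.0.16 (R 4.3.3; TMM, filterByExpr, robust quasi-likelihood, all 12 libraries, genotype as the term), with p-values adjusted by Benjamini-Hochberg over the 20155 genes tested and a threshold of 0.05. DESeq2 1.42.0, with the prior used in the study and without, served as an alternative. The code was tested on simulated data. CPM used TMM library sizes. The levels of the libraries are precise to counting error only, and no pair of libraries within a genotype was the same library again (chi-square of their counts divided by its degrees of freedom, 5.67 to 27.4). The edgeR p-values test differences between genotypes, with 3 mice in each, against a spread between mice. That spread was estimated over all 4 genotypes together and drew on other genes. Same-numbered libraries are different mice.

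The genes, role groups and lists were chosen with earlier results of these data known. Named were, per comparison, the 3 genes with the smallest p, the 6 highest and 4 lowest levels per kb, all Dnah genes, the 3 largest and smallest SDs at 1 CPM or more, called list genes, Foxj1 and the 10 most alike genes. Genes named for non-overlap, for a high or low correlation, Dnah2, and genes named for their share of a list's sum or their unadjusted p were added. Promoter windows came from RefSeq and held 300 bases. Figures were drawn with matplotlib 3.10.9. Lists of motoneuron (201.4 to 306.2 CPM summed) and oligodendrocyte markers (21670 to 30880 CPM) had 0 genes called by edgeR in the 7 comparisons, with 0 to 4 and 0 to 3 of 6 genes at an unadjusted p under 0.05; the lists were not refitted with DESeq2. Cfap74 was not used in the counts.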

Additional observations from a re-analysis of the deposited data

Results flagged for a closer look

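The log2 fold changes of Cfap100 for Plekhg5 loss had opposite signs without and with the transgene, and neither passed the adjusted threshold. Every Plekhg5-/- mouse lay below every Plekhg5+/+ mouse without the transgene (log2 fold change -0.53, edgeR adjusted p = 0.796) and above every one with the transgene (0.41, edgeR adjusted p = 0.5385), and the difference between these effects was 0.93 on the log2 scale. The test of that difference, edgeR's interaction term, gave an adjusted p of 0.338 over all genes and did not pass the threshold, and DESeq2 with the prior on fold changes gave an adjusted p of 0.0493. Over the 20 alternatives tried the adjusted p ran from 0.0493 to 0.7998.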

How the results depend on the processing

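The count of genes called was 0 under nearly all alternatives: other size factors, filters, unrounded counts, the Y-linked indicator as a covariate, a fit of the 2 genotypes alone, the replicate block, DESeq2, and each library left out in turn. The exception was the interaction under DESeq2 with the prior on fold changes, which called 1 gene, Cfap100 (log2 0.59, adjusted p = 0.0493, 41 of the genes with an adjusted p); the cause was not tested. With the replicate number as a block the count was 0 in all 7 comparisons; the numbers mark different mice, and same-numbered libraries correlated at -0.1635 to 0.318 after removal of genotype means. The 3 genes with the smallest p in each comparison kept their direction there in every alternative run; other named genes were not refitted. For the transgene with Plekhg5, the 46 genes' median log2 fold change ran from -0.04 to 0.02 and was below 0 in 4 of 21 alternatives, that for Plekhg5 loss without the transgene from -0.05 to 0.03, and that for the transgene over both backgrounds from -0.03 to 0.00; that for Plekhg5 loss with the transgene stayed negative (-0.13 to -0.06). Over all genes, DESeq2 without a prior called more than edgeR: 1159 against 498 for the transgene with Plekhg5, 45 against 1 without it, 811 against 245 averaged, 72 against 7 for Plekhg5 loss with the transgene, 34 against 6 without it, 18 against 11 averaged, and 95 against 0 for the interaction. The count over all genes with the prior is not given here, so the call of Cfap100 stands without its background. Depth limits the lowest genes: 9 of the 46 had a median of fewer than 30 counts.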

Other observations

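Cfap74, a central apparatus gene left out because it lies on chromosome 4 near Plekhg5 (chr4:155392099-155466823), was at 9.15, 10.9 and 10.5 CPM in Plekhg5+/+, 11.4, 11.8 and 12.2 CPM in Plekhg5-/-, 10.75, 10.3 and 9.96 CPM in Plekhg5+/+ SOD1-G93A and 9.62, 10.8 and 10.4 CPM in Plekhg5-/- SOD1-G93A mice. The Plekhg5-/- mice were all above the controls, with a log2 fold change of 0.21 ± 0.0874 (edgeR adjusted p = 0.929).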
